A study of Mus musculus with 8 samples.

Results

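The Hox cluster genes were described here across 8 expression arrays of hematopoietic stem cells (HSCs) from mouse bone marrow. Members were all probes that are not controls and whose gene name in the array files is Hoxa, Hoxb, Hoxc or Hoxd followed by a number. This rule found 50 probes of 41174, and they name 38 genes of 27600. Cluster A holds 11 of these genes, cluster B 10, cluster C 8 and cluster D 9, which lie on mouse chromosomes 6, 11, 15 and 2. The groups were NrasG12D/G12D cells with both Nras alleles mutant (n = 3), NrasG12D/+ cells with 1 mutant allele (n = 3) and Nras+/+ cells with none (n = 2). All samples came from strain B6, and the mutant allele was expressed from the endogenous locus. The labels state no age, sex, Cre driver or sorting markers. Total RNA of each sample was labelled with Cy3 and hybridised to its own 1-colour Agilent array. Whether the samples came from separate animals is not stated, so each p-value rests on the spread among these samples, which may be technical.

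Hox genes encode homeodomain transcription factors that give cells of the embryo their position along the body axis. They stand in clusters, and genes at the same place in different clusters form paralogue groups that are numbered from the 3′ end of the cluster. Blood stem and progenitor cells use mainly genes of the A and B clusters, and Hoxa9 with its cofactor Meis1 is a well known driver of myeloid leukaemia. Nras is a small GTPase of the Ras family, and the G12D change keeps it in its active state.

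Several Hox probes lie in coding sequence that the family shares, and their sequences are shown first because paralogues are told apart on this array only by the bases in which such probes differ. Sequences are those of the deposited probes, 5′ to 3′, with the strand of the gene, and the files state no genome build for their coordinates. The Hoxa6 probe at chr6:52137778-52137837 (minus strand) and the Hoxd3 probe at chr2:74545313-74545372 (plus strand) carry the codons of the core of the hexapeptide, the short motif through which Hox proteins bind Pbx proteins. The capitals mark these codons, here CCCTGGATG. Codons for the same amino acids, in any reading frame of the probe strand, are found in 0.121% of all probes.
Hoxa6: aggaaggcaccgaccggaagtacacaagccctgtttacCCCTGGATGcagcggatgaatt
Hoxd3: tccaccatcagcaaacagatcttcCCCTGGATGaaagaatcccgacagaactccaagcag
The probes of Hoxc12 at chr15:102766422-102766481 and of Hoxd10 at chr2:74495062-74495121, both on the plus strand, hold at or near their 3′ end a run of 12 bases, in capitals, that is also in the Hoxa9 probe.
Hoxc12: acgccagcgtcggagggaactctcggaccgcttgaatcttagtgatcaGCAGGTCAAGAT
Hoxd10: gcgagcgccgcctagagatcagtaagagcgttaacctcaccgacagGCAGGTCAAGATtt

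Paralogue group 13 gives the clearest view of how unevenly related probes were read. One probe each of Hoxa13 at chr6:52188599-52188658 (minus strand), Hoxb13 at chr11:96012144-96012203 (plus strand) and Hoxd13 at chr2:74470787-74470846 (plus strand) covers the same stretch of the homeobox. Over the 44 bases that all 3 probes share in alignment, 23 are identical in all of them, and these are in capitals.
Hoxa13: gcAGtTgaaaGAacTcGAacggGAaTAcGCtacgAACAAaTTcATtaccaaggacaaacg
Hoxb13: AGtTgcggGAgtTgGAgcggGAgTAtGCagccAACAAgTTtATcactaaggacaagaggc
Hoxd13: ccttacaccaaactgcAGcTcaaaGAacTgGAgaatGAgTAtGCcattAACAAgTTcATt
The Hoxb13 probe was well above background on all 8 arrays, the Hoxd13 probe on 2 and the Hoxa13 probe on 0. Between pairs of these genes, identity over the 44 bases was 65.9% for Hoxa13 and Hoxb13, 70.5% for Hoxa13 and Hoxd13, and 63.6% for Hoxb13 and Hoxd13.

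Hox transcripts were widely but unevenly detected. A probe counts as detected where the scanner software flagged its spots as well above background. Of the 50 Hox probes, 27 were well above background on at least 2 arrays, which is 54%, beside 44.7% of all probes. On all 8 arrays the flag was set for 13 Hox probes, or 26%, beside 16% of all probes. No array detected 18 Hox probes, or 36%, beside 43.3% of all probes. Probes are not replicates, and the difference between these shares was not tested.

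By cluster, probes flagged on at least 2 arrays numbered 8 of 14 for Hoxa, 6 of 15 for Hoxb, 7 of 9 for Hoxc and 6 of 12 for Hoxd. Cluster B, which holds genes known from blood stem cells, thus had the lowest share at 40%, and cluster C the highest at 77.8%. By position, the numbers were 8 of 17 probes in paralogue groups 1 to 4, 6 of 13 in groups 5 to 8 and 13 of 20 in groups 9 to 13. All 4 probes of group 8 and both probes of group 11 were silent on every array. The 10 genes detected on no array were Hoxa5, Hoxa11, Hoxb1, Hoxb2, Hoxb7, Hoxb8, Hoxc8, Hoxc13, Hoxd8 and Hoxd11. Hoxa10, Hoxb5, Hoxd1 and Hoxd4 were each detected on 1 array.

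**Figure D1:**
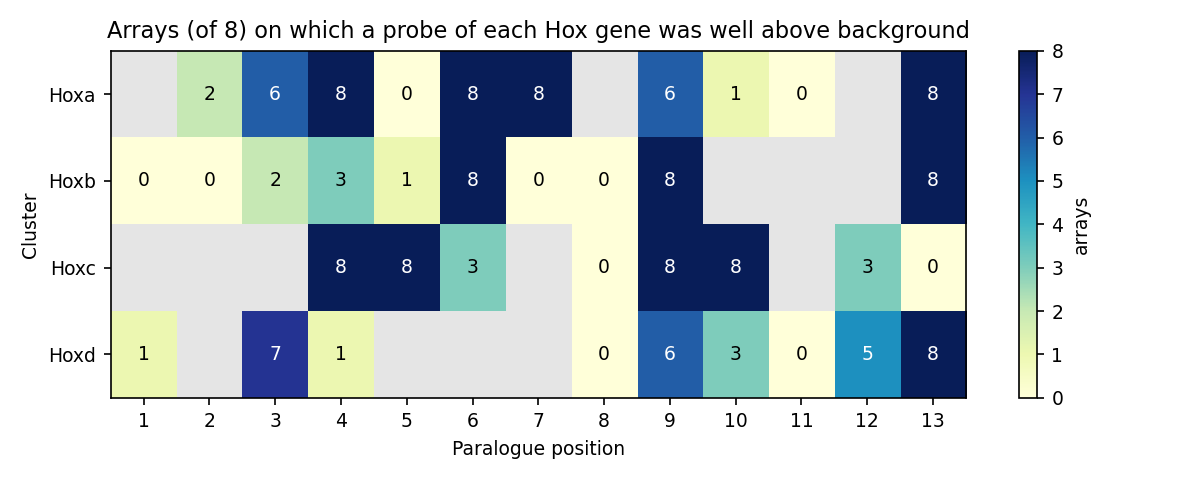
Number of arrays, of 8, on which at least 1 probe of each Hox gene was well above background, with clusters as rows and paralogue position on the horizontal axis; grey cells hold no probe or are not shown. Every cluster holds both genes on 8 arrays and genes on 0, and positions 8 and 11 are at 0 throughout.

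Base composition moved with detection. Among Hox probes under 40% GC, 26.3% were well above background on at least 2 arrays, beside 21.7% of all probes of that class. From 40% to under 50% GC the share was 55% for Hox probes and 53.2% for all probes. At 50% GC and over it was 100% of 11 Hox probes and 86.2% of all probes. The Hox probes silent on every array had a median GC content of 35.8%, against 45% for those flagged on at least 2 arrays. A silent probe sets no level for its gene, and the part of base composition in the silence of genes such as Hoxb7 or Hoxc8 was not tested.

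**Figure D2:**
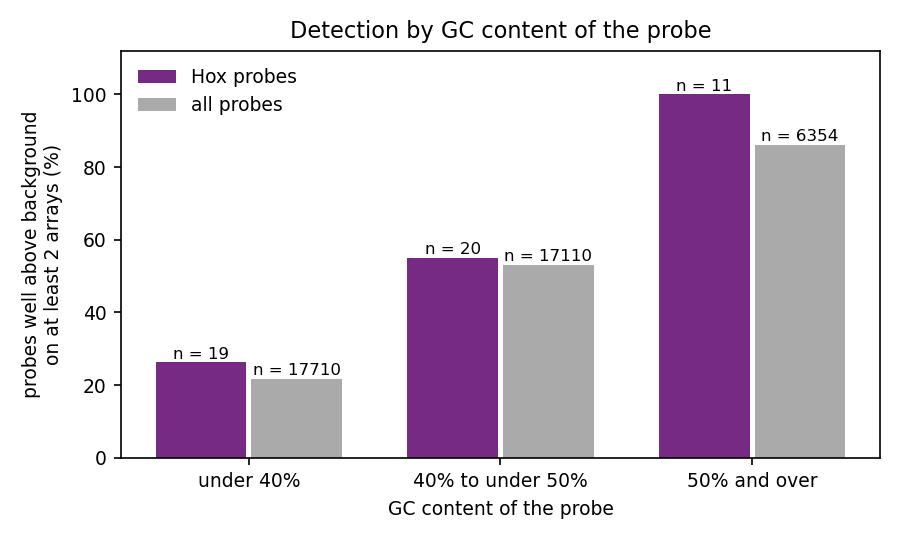
Share of probes well above background on at least 2 arrays, in percent, for Hox probes (left bars) and all probes (right bars) in 3 classes of probe GC content, with the number of probes above each bar. The share climbs with GC content in both sets, to 100% of 11 Hox probes in the highest class.

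Genes with more than 1 probe show the same unevenness within a gene. Of 12 Hox genes with 2 probes, 3 had both probes flagged on at least 2 arrays, and 6 had 1 such probe and 1 that was silent on every array. These 6 were Hoxa3, Hoxa13, Hoxb3, Hoxb9, Hoxd3 and Hoxd9. Both probes of Hoxb2 and of Hoxb8 were silent. Of the Hoxb2 probes, 1 lies on the minus strand, unlike every other cluster B probe, and whether it reads Hoxb2 was not tested. Hoxa4 had 1 probe on all 8 arrays and 1 on a single array. Levels are therefore compared between arrays for 1 probe, never between probes.

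The number of Hox genes detected per array was 15, 16 and 20 in NrasG12D/G12D, 24, 23 and 17 in NrasG12D/+, and 18 and 18 in Nras+/+. The 2 arrays with the most Hox genes were also those with most probes of any kind: the share of all probes well above background was 30.1%, 25.7% and 29.6% in NrasG12D/G12D, 40.6%, 42% and 28.3% in NrasG12D/+, and 35.7% and 30.5% in Nras+/+. Slide and genotype are entangled here: all NrasG12D/G12D arrays and the third NrasG12D/+ array were on slide 2, and the first 2 NrasG12D/+ arrays shared slide 1 with Nras+/+. Of 12 HSC marker genes, Hoxb5 among them, 9 were detected on some array and 4 on all 8, while Procr, Gata2 and Tek were detected on none. Of the markers of other cell types on the array, 4 of 6 for neutrophils, 4 of 5 for monocytes and macrophages, 4 of 5 for erythroid cells, 3 of 6 for megakaryocytes, 5 of 7 for B cells, 5 of 7 for T and NK cells and 6 of 8 for endothelial and stromal cells were detected on some array. Of 7 listed neutrophil markers 3 were tested. The log2 of the summed level of these 3 was -4.09 to -3.54 in NrasG12D/G12D, -2.01 to 6.15 in NrasG12D/+ and -2.03 to -0.79 in Nras+/+. An array detected 0 to 1 of the listed neutrophil markers in NrasG12D/G12D, 1 to 2 in NrasG12D/+ and 1 in Nras+/+. The part of these markers in the Hox levels was not tested. Detected on no array were Camp and S100a8 of the neutrophil list, Cd68 of the monocyte list, Klf1 of the erythroid list, Pf4, Gp9 and Ppbp of the megakaryocyte list, Cd79a and Ebf1 of the B cell list, Cd3d and Gzma of the T and NK cell list, and Cdh5 and Lepr of the endothelial and stromal list. As in any bulk sample, fewer cells of a type and less RNA per cell cannot be told apart.

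Levels below are log2 processed signals relative to the 75th percentile of 6576 probes detected on every array, so that 0 stands for that percentile and 1 unit for a factor of 2. Hox probes silent on all arrays had median levels of -6.84, -5.83 and -6.41 in NrasG12D/G12D, -7.16, -7.15 and -5.82 in NrasG12D/+, and -6.52 and -5.83 in Nras+/+. The lowest level of any probe well above background was -4.63, -3.70 and -4.28 in NrasG12D/G12D, -5.13, -5.06 and -3.69 in NrasG12D/+, and -4.37 and -3.85 in Nras+/+. A Hox level at or below these values is signal at background and carries no order.

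The A cluster members with the closest ties to blood were read very differently. Hoxa7, often active with Hoxa9 in leukaemia with MLL fusions, was detected on all 8 arrays at -1.84, -1.18 and -1.08 in NrasG12D/G12D, -2.35, -1.77 and -0.67 in NrasG12D/+, and -1.56 and -0.84 in Nras+/+. Its groups overlapped in every comparison, and its log2 change was -0.17 ± 0.77 (SE) for NrasG12D/G12D over Nras+/+. Hoxa9, which maintains blood progenitors, stood at -6.09, 5.43 and -3.94 in NrasG12D/G12D, -2.72, -3.11 and -3.86 in NrasG12D/+, and 0.50 and -2.30 in Nras+/+. It was not well above background on the first NrasG12D/G12D and the third NrasG12D/+ array. The second NrasG12D/G12D array alone held the highest Hoxa9 level of all, and the SD of that group was 6.13. Hoxa5 and Hoxa10, both linked to blood cell differentiation, gave levels at or near background: Hoxa5 lay between -7.42 and -4.63 on the 8 arrays. Hoxa10 lay between -6.24 and -3.44 and was flagged only on the second NrasG12D/+ array, at -4.45. Its highest level, -3.44 on the second Nras+/+ array, was not flagged.

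By measured level, Hoxa6 and Hoxa3 set the homozygous arrays apart from both other genotypes at this scaling. Hoxa6 stood at -1.19, -2.15 and -2.25 in NrasG12D/G12D, -3.65, -2.94 and -2.65 in NrasG12D/+, and -2.93 and -2.80 in Nras+/+. Each NrasG12D/G12D array was above each of the other 5, and the gene was detected on all 8 arrays. Hoxa3, needed for thymus and parathyroid development, was at -4.93, -5.04 and -3.99 in NrasG12D/G12D, -3.25, -3.01 and -0.90 in NrasG12D/+, and -3.74 and -2.36 in Nras+/+. Each NrasG12D/G12D array was below each of the others. The gene was well above background on 6 arrays, which leaves out the first 2 NrasG12D/G12D arrays. On the second NrasG12D/G12D array the lowest level well above background was -3.70, so its order against the first Nras+/+ array is not set. Under the other scalings and normexp background correction its NrasG12D/G12D and Nras+/+ arrays overlapped.

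The anterior gene Hoxa2, which patterns the hindbrain, was close to background. It was flagged on 2 arrays, the first of each mutant genotype, and on neither Nras+/+ array, so that it gave no measured change over Nras+/+. Hoxa4, an anterior patterning gene, was detected on all 8 arrays and overlapped between all groups, at -3.91, -2.48 and -0.90 in NrasG12D/G12D, -1.48, -3.29 and -1.17 in NrasG12D/+, and -1.89 and -3.55 in Nras+/+.
Hoxa13, which shapes digits and the urogenital tract, was detected on all 8 arrays by its other probe. It stood at 2.25, 1.57 and 0.61 in NrasG12D/G12D, 2.39, 5.61 and 2.61 in NrasG12D/+, and 1.68 and 2.57 in Nras+/+. The second NrasG12D/+ array was the highest, and all NrasG12D/+ arrays were above all NrasG12D/G12D arrays.

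In the B cluster, the genes best known from HSCs gave little signal. Hoxb4, whose forced expression expands HSCs in culture, was at -5.78, -5.06 and -3.84 in NrasG12D/G12D, -3.40, -4.89 and -5.77 in NrasG12D/+, and -4.64 and -4.93 in Nras+/+. Only the third NrasG12D/G12D array and the first 2 NrasG12D/+ arrays were well above background. Hoxb5, a marker of long-term HSCs in mice, was flagged on 1 array, the second NrasG12D/+ array, at -4.68, and lay between -7.24 and -5.83 on the other 7. Hoxb3, which acts with Hoxb4 in blood progenitors, was at -6.65, -5.85 and -5.67 in NrasG12D/G12D, -6.10, -2.77 and -4.45 in NrasG12D/+, and 0.57 and -5.13 in Nras+/+. It was well above background on 2 arrays only, the first Nras+/+ and the second NrasG12D/+ array.

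Hoxb6, active in early blood and mesoderm, was bright on every array through 1 of its probes, at 5.80, 2.60 and 5.15 in NrasG12D/G12D, 5.70, 5.19 and 7.17 in NrasG12D/+, and 5.61 and 6.79 in Nras+/+. The second NrasG12D/G12D array was the lowest. The other Hoxb6 probe was at -4.86, -3.01 and -2.21 in NrasG12D/G12D, -4.93, -4.60 and -3.31 in NrasG12D/+, and -3.73 and -3.90 in Nras+/+. The probes differed in sign between NrasG12D/G12D and Nras+/+, at -1.68 ± 1.1 for the brighter probe and 0.45 ± 0.94 for the dimmer one (log2 change, SE). Hoxb13, best known from the prostate, was at -2.01, -0.98 and 2.21 in NrasG12D/G12D, 0.61, -0.20 and -1.93 in NrasG12D/+, and -0.73 and -1.71 in Nras+/+. Its range within NrasG12D/G12D covered all other arrays. Hoxb9 could not be tested, because the brighter of its probes carried an outlier flag on 6 arrays.

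In the C cluster, Hoxc9 and Hoxc10, which set thoracic and lumbar identity in the spinal cord, were detected on all 8 arrays. Hoxc9 was at -3.14, -1.91 and -1.73 in NrasG12D/G12D, -2.99, -2.56 and -1.87 in NrasG12D/+, and -1.38 and -1.69 in Nras+/+. Both Nras+/+ arrays were above all 6 mutant arrays, although the third NrasG12D/G12D array lay close to the second Nras+/+ array. Hoxc10 stood at -3.09, -1.60 and -2.01 in NrasG12D/G12D, -2.64, -1.57 and -1.45 in NrasG12D/+, and -1.61 and -0.97 in Nras+/+ by its tested probe, with overlap in both comparisons with Nras+/+. Its other probe was at -2.35, -2.20 and -2.61 in NrasG12D/G12D, -2.68, -2.45 and -2.10 in NrasG12D/+, and -1.15 and -1.24 in Nras+/+, so that both Nras+/+ arrays were above all mutant arrays. By that probe the log2 change was -1.19 ± 0.66 for NrasG12D/G12D and -1.21 ± 0.66 for NrasG12D/+ over Nras+/+ (SE, limma adjusted p = 0.708 and 0.82).

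The other C cluster members were mixed. Hoxc6, a gene of brachial identity, was at -4.80, -4.99 and -5.39 in NrasG12D/G12D, -5.47, -4.90 and -3.33 in NrasG12D/+, and -4.26 and -3.12 in Nras+/+. It was well above background on no NrasG12D/G12D array, on the third NrasG12D/+ array and on both Nras+/+ arrays. Hoxc4, the most anterior member measured in this cluster, was on all 8 arrays at -0.82, -0.16 and -2.09 in NrasG12D/G12D, -1.56, 0.80 and -2.32 in NrasG12D/+, and -0.56 and -1.68 in Nras+/+, and its groups overlapped. Hoxc12, a posterior gene, was at -6.50, -5.62 and -1.42 in NrasG12D/G12D, -4.16, -4.21 and -5.50 in NrasG12D/+, and -6.28 and -5.66 in Nras+/+. It was well above background on 3 arrays, the third NrasG12D/G12D and the first 2 NrasG12D/+ arrays. Hoxc5 was detected on all 8 arrays but had an outlier flag on 2 NrasG12D/G12D arrays and was not tested.

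The D cluster is best known for limb and axial patterning. Hoxd3, a patterning gene of the upper neck, was at -3.41, 0.55 and -3.16 in NrasG12D/G12D, -1.43, -3.47 and -2.80 in NrasG12D/+, and -3.60 and -3.65 in Nras+/+. All 6 mutant arrays were above both Nras+/+ arrays, the nearest pair being -3.47 and -3.60, and the second NrasG12D/G12D array was the highest. Hoxd3 was not well above background on the second Nras+/+ array. Hoxd13, a digit patterning gene, was detected on all 8 arrays at -1.74, -0.41 and -1.22 in NrasG12D/G12D, -1.81, -1.55 and 0.03 in NrasG12D/+, and -0.33 and 1.13 in Nras+/+. Its homeobox probe, printed above, was detected only on the third NrasG12D/G12D array at -2.27 and the second NrasG12D/+ array at -4.62. The probes differed in sign between NrasG12D/G12D and Nras+/+, at -1.52 ± 0.88 for the brighter probe and 0.84 ± 1.14 for the homeobox probe (log2 change, SE).

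Hoxd9, Hoxd10 and Hoxd12, posterior genes of trunk and limb, spread widely within Nras+/+, with SDs of 2.82, 3.96 and 2.82. In the mutant genotypes the SDs ran from 0.28, for Hoxd10 in NrasG12D/+, to 3.11, for Hoxd9 in NrasG12D/G12D. Hoxd9 was at -6.67, -0.47 and -3.94 in NrasG12D/G12D, -5.02, -4.55 and -2.61 in NrasG12D/+, and -5.56 and -1.57 in Nras+/+. Hoxd10 was at -5.67, -3.88 and -4.92 in NrasG12D/G12D, -4.40, -4.60 and -4.95 in NrasG12D/+, and -6.49 and -0.89 in Nras+/+. Hoxd12 was at -5.30, -4.57 and -3.78 in NrasG12D/G12D, 0.41, -5.04 and -3.29 in NrasG12D/+, and -3.73 and 0.25 in Nras+/+. For Hoxd10 the second Nras+/+ array was the highest of all 8, while the first was at background. Hoxd10 was well above background on 3 arrays only, the first 2 NrasG12D/+ arrays and the second Nras+/+ array. For Hoxd12 the NrasG12D/G12D arrays were all below the Nras+/+ arrays, the nearest pair being -3.78 and -3.73. The first and second NrasG12D/G12D arrays were not well above background for Hoxd12.

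**Figure D3:**
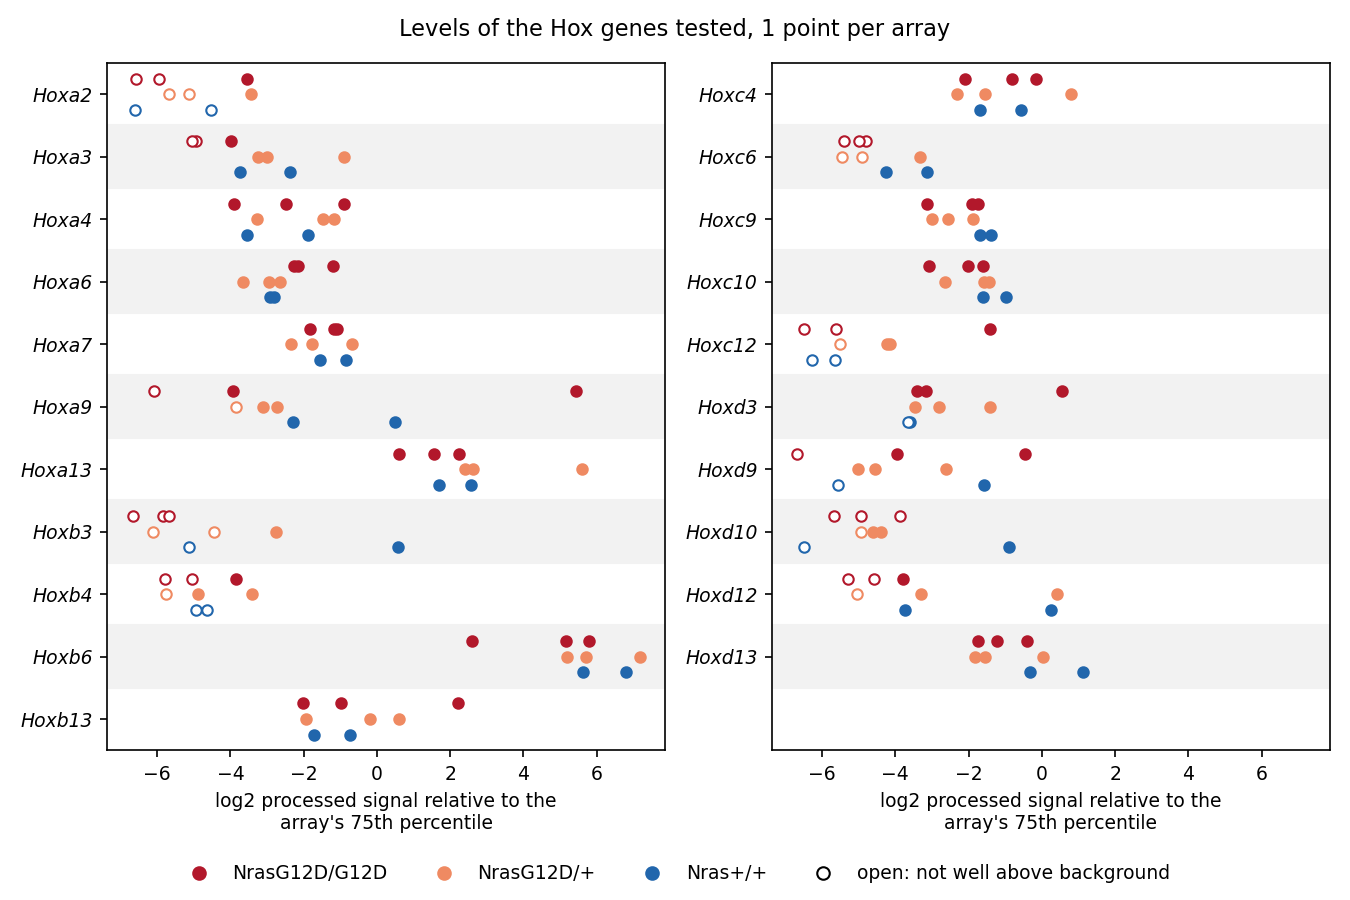
Level of the tested probe of each of 21 Hox genes on every array, as log2 processed signal relative to the array's 75th percentile, with NrasG12D/G12D in red, NrasG12D/+ in orange and Nras+/+ in blue; open points were not well above background. Genotypes overlap for most genes, and single arrays stand apart, as for Hoxa9 at 5.43 in the second NrasG12D/G12D array.

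Of 38 Hox genes, 24 had a probe detected on at least 2 arrays and 22 of them could be tested; the other members have no measured change. Tests were run with limma over 14966 genes, and the Benjamini-Hochberg adjusted p is given over all of them. Both mutant comparisons share the same 2 Nras+/+ arrays.

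Homozygous against wild-type cells asks what changes when both Nras alleles carry G12D. No Hox gene passed an adjusted p of 0.05 in limma, and neither did any other gene (0% of genes tested). Hoxb3 alone had an unadjusted p under 0.05, as did 978 genes in all, or 6.53%. For Hoxb3, which was not well above background in any NrasG12D/G12D array, the measured means were -6.05 ± 0.52 in NrasG12D/G12D and -2.28 ± 4.03 in Nras+/+ (SD, n = 3 and 2), and the level was at least 3.79-fold lower in NrasG12D/G12D (limma adjusted p = 0.722). This bound sets the Nras+/+ mean, over 1 array above background and 1 at it, against the higher of the probe's own level and the lowest level well above background on each NrasG12D/G12D array. It rests on the first Nras+/+ array: without that array the log2 change was -0.92, and without the second it was -6.63.

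Among the 22 Hox genes, 8 had a higher and 14 a lower mean in NrasG12D/G12D, and the median log2 change was -0.40. All genes tested had a median of -0.44, so the Hox genes lay 0.04 above the array as a whole. Arrays of the 2 genotypes did not overlap for 9 Hox genes, or 40.9%, beside 28.8% of all genes. The 3 that were higher in all NrasG12D/G12D arrays (all genes 6.04%) include Hoxa6 and Hoxd3, and Hoxa3, Hoxb3, Hoxc6, Hoxc9, Hoxd12 and Hoxd13 were lower (all genes 22.8%). This split of 3 higher and 6 lower depended on the scaling: it was 3 and 1 with the percentile over all probes, 5 and 0 with the median, 4 and 1 with quantile normalization and 0 and 3 with normexp background correction. Each gene named here kept the sign of its change under these scalings. Hoxb3 was at background on all NrasG12D/G12D arrays and the second Nras+/+ array, and these levels carry no order. Hoxa3, Hoxc6 and Hoxd12 were not well above background on the second NrasG12D/G12D array. The lowest level well above background there, -3.70, exceeds the levels of these genes on the first Nras+/+ array. Their order between these arrays is therefore not set.

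Hoxa6 averaged -1.86 ± 0.59 in NrasG12D/G12D and -2.86 ± 0.09 in Nras+/+ (SD, limma adjusted p = 0.744). Hoxd3 had a log2 change of 1.62 ± 1.24 (SE, limma adjusted p = 0.75). Both probes hold the hexapeptide codons shown above, and Hoxd3 drew its mean from the second NrasG12D/G12D array, without which the change was 0.34. With normexp correction these changes shrank to 0.34 for Hoxa6 and 0.48 for Hoxd3.

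The lower genes were spread over all 4 clusters. Hoxa3 had a log2 change of -1.60 ± 0.93 and Hoxd12 of -2.81 ± 1.65 (SE, limma adjusted p = 0.724 and 0.725). For Hoxd13 the log2 change was -1.52 ± 0.88 and for Hoxc9 it was -0.72 ± 0.76 (SE, limma adjusted p = 0.724 and 0.795). Without the second Nras+/+ array the change was -0.91 for Hoxa3, -0.82 for Hoxd12 and -0.79 for Hoxd13, and without the first NrasG12D/G12D array it was -0.29 for Hoxc9. Hoxc6 was at least 1.43-fold lower in NrasG12D/G12D, whose arrays were all at background (limma adjusted p = 0.725). Its measured log2 change of -1.37 shrank to -0.80 without the second Nras+/+ array. Of 8 endothelial and stromal markers 5 were tested. The log2 of the summed level of these 5 was -0.47 to 3.57 in NrasG12D/G12D, -1.28 to 0.79 in NrasG12D/+ and 0.47 to 2.25 in Nras+/+. Of the 8 markers 6 were detected on some array and 2 on all 8 arrays, and their part in the Hox levels was not tested.

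No slide held both NrasG12D/G12D and Nras+/+ arrays. With the slide as a block, which links them only through the NrasG12D/+ arrays, the median Hox change was -0.80, beside -0.75 over all genes. Hoxa3 then had a change of -3.83 and Hoxd13 of -3.23, while that of Hoxa6 shrank to 0.36 and that of Hoxd12 to -1.84. Hoxa4, at -0.92 with that block and 0.29 without it, and Hoxa13, at 0.73 and -0.66, changed sign. So did Hoxa9, at 0.31 and -0.63, and Hoxb4, at 1.51 and -0.11, which was at background on both Nras+/+ arrays.

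By cluster, the median log2 change between NrasG12D/G12D and Nras+/+ was 0.03 over 8 Hoxa genes, -0.89 over 4 Hoxb genes, -0.72 over 5 Hoxc genes and -1.13 over 5 Hoxd genes. Changes ran from -3.77 to 0.96 in cluster B and from -2.81 to 1.62 in cluster D, and each cluster held both signs.

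**Figure D4:**
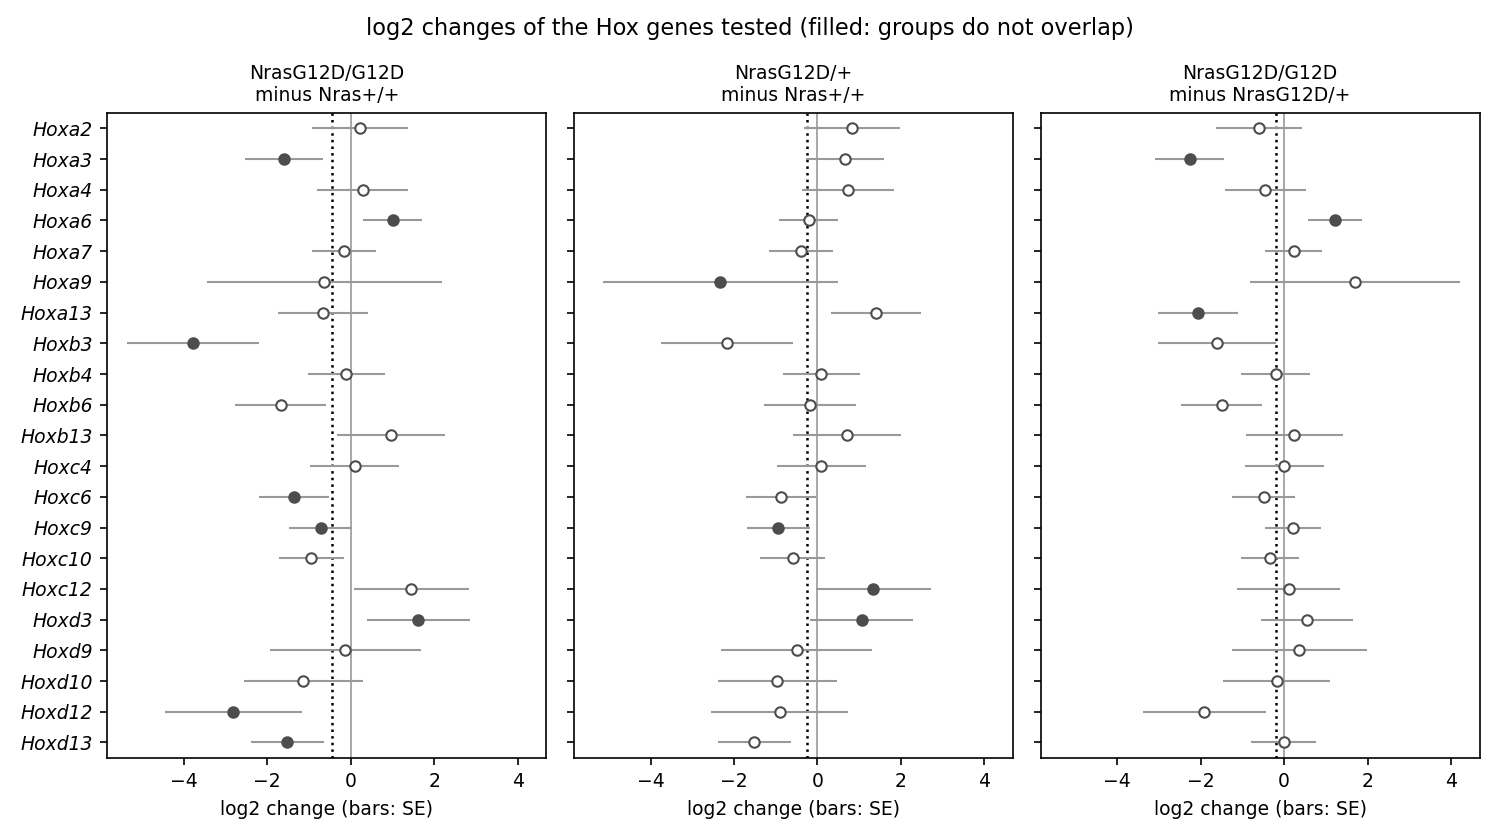
log2 change of each of 21 Hox genes in 3 comparisons, NrasG12D/G12D minus Nras+/+ on the left, NrasG12D/+ minus Nras+/+ in the middle and NrasG12D/G12D minus NrasG12D/+ on the right; bars show the SE, dotted lines the median of all genes tested, and filled points genes whose groups do not overlap. Points fall on both sides of 0 in each panel, around medians of -0.40, -0.20 and -0.09 over the 22 genes tested.

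Heterozygous against wild-type cells asks what 1 mutant allele does. No Hox gene and no other gene passed an adjusted p of 0.05 in limma (0% of genes tested), and no Hox gene had an unadjusted p under 0.05, against 713 of all genes, or 4.76%. The median change of the Hox genes was -0.20, against -0.25 over all genes, with 10 Hox genes higher and 12 lower in NrasG12D/+. Groups did not overlap for 4 Hox genes, or 18.2%, beside 25% of all genes. Hoxd3 was higher in all NrasG12D/+ arrays (all genes 8.96%), and Hoxa9 and Hoxc9 were lower (all genes 16%). The other gene counted is Hoxc12, but it was at background on the third NrasG12D/+ array and both Nras+/+ arrays, and these levels carry no order.

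Hoxa9 had means of -3.23 ± 0.58 in NrasG12D/+ and -0.90 ± 1.98 in Nras+/+ (SD), a log2 change of -2.33 ± 2.81 (SE, limma adjusted p = 0.85). Without the first Nras+/+ array it was -0.93. Hoxd3 differed by 1.06 ± 1.24 and Hoxc9 by -0.94 ± 0.76 on the log2 scale (SE, limma adjusted p = 0.845 and 0.818). For Hoxc12 the measured means were -4.62 ± 0.76 in NrasG12D/+ and -5.97 ± 0.44 in Nras+/+, at background there (SD), a log2 change of 1.34 with no fold to bound, which turned to -0.17 with normexp correction. Within slide 1, which held both Nras+/+ arrays and 2 NrasG12D/+ arrays, Hoxa9 differed by -2.01, Hoxc9 by -1.24 and Hoxd3 by 1.18. Without the first NrasG12D/+ array the Hoxd3 change was 0.49. With normexp correction it was 0.03 and the Hoxd3 groups overlapped. The median Hox change within slide 1 was -0.50, beside -0.36 over all genes.

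Between the mutant genotypes, which asks what the second mutant allele adds, again no Hox gene and no other gene passed an adjusted p of 0.05 in limma (0% of genes tested). Hoxa3 alone had an unadjusted p under 0.05, as did 890 genes in all, or 5.95%. Its mean was -4.65 ± 0.58 in NrasG12D/G12D and -2.39 ± 1.29 in NrasG12D/+ (SD, n = 3 each), a log2 change of -2.26 ± 0.83 (SE, limma adjusted p = 0.803). Within slide 2, where 3 NrasG12D/G12D arrays stood beside 1 NrasG12D/+ array, it was -3.75, and that lone array held the highest Hoxa3 level of all 8. With normexp correction the change was -0.48.

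Groups did not overlap between the mutant genotypes for 3 Hox genes, or 13.6%, beside 11.5% of all genes. Hoxa6 was higher in NrasG12D/G12D (all genes 2.79%), by 1.21 ± 0.64 on the log2 scale (SE, limma adjusted p = 0.803). Hoxa13 and Hoxa3 were lower (all genes 8.71%), Hoxa13 by a log2 change of -2.06 ± 0.97 (SE, limma adjusted p = 0.803). Within slide 2 the change was 0.79 for Hoxa6 and -1.14 for Hoxa13, and without the second NrasG12D/+ array that of Hoxa13 was -1.03. The median Hox change was -0.09 and that of all genes -0.20, with 10 Hox genes higher and 12 lower in NrasG12D/G12D. The Hox median turned to 0.23 with the percentile over all probes, 0.36 with median scaling, 0.27 with quantile normalization and 0.09 with normexp correction. The median of all genes moved with it, to 0.12, 0.25, 0.07 and 0.11 in the same order. Within slide 2 the Hox median was -0.54, beside -0.37 over all genes.

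Hox proteins bind DNA with homeodomain cofactors of the TALE class, the Meis, Pbx and Pknox proteins. Of 9 such genes 6 were tested and none was called. In NrasG12D/G12D against Nras+/+ 3 were higher and 3 lower, with a median log2 change of -0.31, beside -0.44 over all genes. Meis1 was at -3.13, -3.78 and -2.86 in NrasG12D/G12D, -3.13, -3.15 and -2.31 in NrasG12D/+, and -2.53 and -1.85 in Nras+/+, a log2 change of -1.06 ± 0.71 between NrasG12D/G12D and Nras+/+ (SE, limma adjusted p = 0.733). All NrasG12D/G12D arrays were below both Nras+/+ arrays. Pbx3 was not well above background in NrasG12D/G12D and at least 2.18-fold lower there than in Nras+/+ (limma adjusted p = 0.722), the only TALE gene with an unadjusted p under 0.05 in that comparison. Meis3 differed by -0.76 ± 1.23 between these genotypes (log2 change, SE).

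Upstream, MLL complexes keep Hox genes active and Polycomb complexes keep them silent. Of 19 activator genes 11 were tested and none was called. In NrasG12D/G12D against Nras+/+ 6 were higher and 5 lower, with a median log2 change of 0.06, beside -0.44 over all genes. Kmt2a, which encodes MLL1, had a log2 change of -1.58 ± 0.75 in NrasG12D/G12D and -1.37 ± 0.75 in NrasG12D/+ over Nras+/+ (SE, limma adjusted p = 0.722 and 0.816). On the second NrasG12D/G12D array Kmt2a, at -4.46, lay below the lowest level well above background there, -3.70. Aff1, a fusion partner of MLL, was higher in NrasG12D/G12D than in Nras+/+ by 4.46 ± 1.57 on the log2 scale, and Aff4, of the same family, by 2.33 ± 1.03 (SE, limma adjusted p = 0.722 each). Aff1 was at 3.46, 2.61 and -1.37 in NrasG12D/G12D, and -1.72 and -4.08 in Nras+/+. The Aff4 groups overlapped, with -3.12 on the first NrasG12D/G12D array and -2.95 on the first Nras+/+ array. Rbbp5, a core subunit of MLL complexes, differed by -1.61 ± 0.67 (SE, limma adjusted p = 0.722).
Of 18 Polycomb genes 12 were tested and none was called. In NrasG12D/G12D against Nras+/+ 6 were higher and 6 lower, with a median log2 change of -0.01, beside -0.44 over all genes. Bmi1, a Polycomb gene needed for HSC self-renewal, was not well above background in NrasG12D/G12D and at least 2.73-fold lower there than in NrasG12D/+ (limma adjusted p = 0.803). Ring1 was at least 6.41-fold lower in the same comparison (limma adjusted p = 0.803), with the first 2 NrasG12D/+ arrays far above the third. Both bounds rest on these 2 arrays, which were on slide 1. On slide 2 Bmi1 was at -5.04 to -4.78 in NrasG12D/G12D and at -4.77 on the third NrasG12D/+ array, and Ring1 at -4.95 to -3.74 and at -3.81, none of them well above background, so that neither bound holds within that slide.

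Of 12 genes reported downstream of Hoxa9 and Meis1, 10 were tested and none was called. In NrasG12D/G12D against Nras+/+ 3 were higher and 7 lower, with a median log2 change of -0.56, beside -0.44 over all genes. Of all genes tested 35.6% were higher in that comparison. Lmo2 and Erg, blood transcription factors, differed by -2.57 ± 1.34 and -0.03 ± 1.92 between these genotypes (log2 change, SE). Sox4 was at least 1.29-fold lower in NrasG12D/G12D, whose arrays were all at background. Itga4, an integrin of HSC homing, stood at 7.55 on the first Nras+/+ array and between -4.83 and -0.77 on the other 7.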

How the data were processed

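Total RNA of 8 HSC samples was measured on 1-colour Agilent arrays. Per the file headers, Agilent Feature Extraction 10.5.1.1 made the deposited intensities: the processed signal is background-subtracted and detrended within an array and not scaled between arrays, while the mean and background intensities are uncorrected. Flags for spots well above background are deposited as 0 or 1. The deposited value table holds a ratio, which set against the scanner values equals the processed signal over the array's median (largest relative deviation 1.7e-06, column medians 1).

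Spots with an outlier flag were set to missing, and spots of a probe were averaged. Hox genes carry the names in the files, as the rule asks. Other probes were named through a RefSeq table by accession (24375), symbol (6301) or synonym (2419), or kept the file's name (8079). A probe counted as well above background where more of its spots than not were flagged. Log2 signals were scaled to each array's 75th percentile over the 6576 probes detected on all arrays. Probes detected on at least 2 arrays, with at least 2 values in each group (a detail settled after the files were seen), were tested, and the brightest by mean level stood for a gene, which left 14966 genes. They were fitted with limma 3.58.1 in R 4.3.3 (lmFit, eBayes, 3 groups in 1 fit, two-sided) and adjusted by Benjamini-Hochberg at 0.05, with the procedure first tested on simulated data. The number of arrays limits precision: the median SE was 0.96 in both comparisons with Nras+/+ and 0.86 between the mutant genotypes.

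The rule for naming gave values on every array for each tested Hox gene detected on at least 3 arrays and for Hoxa5, Hoxa7, Hoxa9, Hoxa10, Hoxb4 and Hoxb5. It also named genes with an unadjusted p under 0.05 or groups that do not overlap, at most 4 genes per related list, and always Meis1 and Kmt2a. Some genes and sequences that the rule covers are not reported here, though counts and medians include them. Members and lists were chosen with earlier results of these data known. Alternatives were the scaling, background correction, filters, probe choice, slide and replicate number as blocks, and leaving out each array. Replicate numbers were not found to pair arrays (correlations of deviations -0.0999 to 0.0937 over 5906 genes).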

Additional observations from a re-analysis of the deposited data

How the results depend on the processing

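No Hox gene came below an adjusted p of 0.272 in 1086 values under the alternatives, and that lowest value was Hoxb3 in NrasG12D/G12D against Nras+/+ without Nras+/+ replicate 2. The count of genes called over the whole array, 0 in each comparison, became 1 for NrasG12D/+ against Nras+/+ with the percentile over all probes, with median scaling, with quantile normalization and with no filter, and 0 to 10 when single arrays were left out. For NrasG12D/G12D against Nras+/+ it became 1 with quantile normalization, with no filter, with only the 2 groups in the fit and with the slide as a block, and 0 to 9 when single arrays were left out. Between the mutant genotypes it became 4 with the slide as a block, and 0 to 2 when single arrays were left out. The counts of 10 and 9 came without Nras+/+ replicate 2. The median Hox change for NrasG12D/+ over Nras+/+, -0.20, was -0.50 when slide was a block or slide 1 was taken alone, where the median of all genes was -0.36. It was -0.50 to 0.10 when single arrays were left out. For NrasG12D/G12D over Nras+/+ it was -0.40, and 0.23 with median scaling, where the median of all genes was 0.19. With the replicate number as a block the 3 medians were -0.36, -0.42 and -0.09, for NrasG12D/G12D and NrasG12D/+ over Nras+/+ and between the mutants, and no gene was called. Hoxc12 in NrasG12D/+ against Nras+/+ turned from 1.34 to -0.17 with normexp correction, and the cause was not tested. Hox genes whose groups do not overlap numbered 9 for NrasG12D/G12D against Nras+/+, and 3 to 5 with another scaling or background correction. Detection on all 8 arrays in place of 2 left 13 of 27 Hox probes. A laxer flag, for signal positive and significant, raised the Hox genes detected to 25, 27 and 26 on the NrasG12D/G12D arrays, 31, 34 and 25 on the NrasG12D/+ arrays and 27 and 28 on the Nras+/+ arrays. Keeping outlier-flagged spots, an alternative chosen after seeing the data, turned no stated direction. Levels near background limit what can be said of Hoxb3, Hoxb4, Hoxc6, Hoxc12 and Hoxd10, and of 66 log2 changes over 22 Hox genes, leaving out 1 array turned the sign of 37 and turned or moved by over 1.5 times 61, at least 1 in every gene.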

Other observations

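Transcripts that run antisense to the Hox clusters were also on the array. Both probes of Hoxaas3 and the probe of Hoxaas2, in cluster A, were well above background on no array. Of the probes of Hoxd3os1, in cluster D, 1 was detected on the third NrasG12D/+ array alone, at -2.94.

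Of 15 listed genes that flank the Hox clusters 14 were on the array, all 14 had a probe well above background on some array, and 12 were tested. In NrasG12D/G12D against Nras+/+ 3 were higher and 9 lower, with a median log2 change of -0.40 and none called, beside -0.44 over all genes. Calcoco1, which lies beside cluster C, was at -6.44, -5.71 and -6.22 in NrasG12D/G12D, -3.63, -1.75 and -5.07 in NrasG12D/+, and -6.44 and -5.64 in Nras+/+. It was well above background on the first 2 NrasG12D/+ arrays only, and at least 1.54-fold higher in NrasG12D/+ than in Nras+/+ (limma adjusted p = 0.816). Skap2, an adaptor protein gene beside cluster A, differed by -1.84 ± 1.17 and Snx11, a sorting nexin gene beside cluster B, by -0.92 ± 0.81 between NrasG12D/G12D and Nras+/+ (log2 change, SE). Nras itself, whose mutation changes 1 codon and so gives no check of the labels by level, was at -4.53, -4.16 and -4.14 in NrasG12D/G12D, -3.98, -3.31 and -2.78 in NrasG12D/+, and -2.79 and -2.18 in Nras+/+, by the only one of its 3 probes that was detected. That probe was well above background on 5 arrays only. On the second NrasG12D/G12D array its level lay below the lowest level well above background there, -3.70.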
